A study of Mus musculus with 4 samples.

Results

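The gene models deposited with these macrophage libraries hold 24625 genes, of which 475 carry names of the form XLOC_, the prefix that transcript assembly with Cufflinks gives to a locus it builds from reads, and 24150 are RefSeq genes. Described here are the 252 assembled genes whose bounds, from the lowest exon start to the highest exon end, overlap a RefSeq gene or end within 10000 bases of one on the same chromosome. The 24 RefSeq entries without a gene name were not counted as neighbours, and the other 223 assembled genes lie farther away. The choice used positions only and no expression value. The libraries came from peritoneal macrophages of C57BL/6 mice (the series' design text writes C57BL/6J), with no transgene or gene deletion named. The control group ate standard chow and the high-fat group a diet with 60% of its energy from fat, each for 12 weeks. Mice of both groups received 3% thioglycollate medium into the peritoneum 4 days before collection, an irritant that recruits macrophages. The sources used here do not give the age of the mice. Each diet had 2 libraries of ribosomal-RNA-depleted total RNA, a preparation that also keeps transcripts without a poly(A) tail. The labels do not say that the libraries came from separate animals, so p-values measure only the spread between these samples, which may be technical.

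Transcription in mammalian genomes reaches well beyond annotated genes. Many active promoters, above all those rich in CpG dinucleotides, fire in both directions and yield a divergent RNA on the opposite strand; other noncoding RNAs run antisense through a gene, start inside its introns, or arise at enhancers upstream. Such RNAs are usually less abundant than messenger RNAs, and in macrophages several are known at genes of inflammation, lipid handling and myeloid identity. A model on the same strand as a gene, just outside its annotated ends, can also be an unannotated first or last exon of that gene.

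Each assembled gene was given 1 reference gene: the RefSeq gene it overlaps, or otherwise the nearest, so its class is relative to that gene alone. Of the 252, 182 lay on the opposite strand and 70 on the same strand. The opposite-strand genes comprised 84 that overlap the reference gene, 73 divergent genes whose 5′ end faces the 5′ end of the reference, and 25 convergent genes whose 3′ end faces its 3′ end. The same-strand genes comprised 38 upstream of the reference, 26 downstream and 6 overlapping its bounds. In all, 90 overlap the bounds of the reference and 42 lie wholly inside them. The reference was protein-coding for 221 and noncoding for 31. The 252 genes had 244 distinct reference genes, 8 of which served 2 assembled genes each, and 81 had more than 1 RefSeq gene within 10000 bases.

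The models are short and mostly spliced. After overlaps were merged, 159 of them had 2 exon blocks, 91 had 3 or more (at most 6) and 2 had 1. Their merged exon length ran from 251 to 16790 bases with a median of 1637. Exon bases were shared with a RefSeq exon by 39, in each case on the opposite strand and never on the same strand. The shared part was small, a median of 6.61% of the exon bases and at most 28.7%. The sources used here do not say whether reads were assigned by strand. For these 39 genes reads of the assembled gene and of its antisense partner may thus not be told apart. Reads from an intron of the reference may also be counted for an assembled gene that overlaps its bounds (90 genes, 42 of them wholly inside). For the 6 such genes on the same strand, counting by strand would not separate them. This was not tested. At the distance limit, the genes just inside were XLOC_000370 at 9793 bases from Neu2, XLOC_008385 at 9720 from 1700029N11Rik and XLOC_031491 at 9604 from Prss42. Outside it, XLOC_001805 lay 10001 bases from Ifi205 and XLOC_030145 10314 from Lpl.

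**Figure D1:**
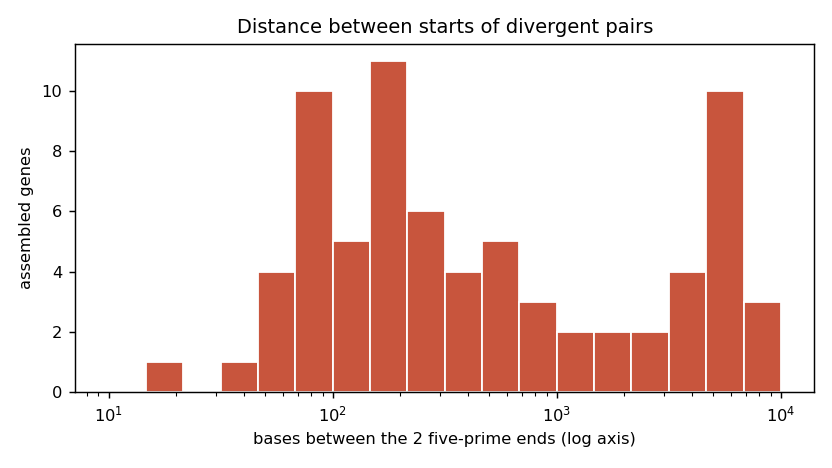
Histogram of the distance between the 5′ end of each of the 73 divergent assembled genes and the 5′ end of its RefSeq gene (horizontal axis, bases, log scale; vertical axis, number of assembled genes). The median is 304 bases, and 50 of the 73 lie within 1000 bases.

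The divergent genes start close to their RefSeq genes. The distance between the 5′ ends had a median of 304 bases, was within 250 bases for 32 genes and within 1000 for 50, and was smallest, 16 bases, for XLOC_031399 at Alas1. The genome sequence of the files' build, mm9, was not used here, so the sequence of the assembled genes themselves is not printed. For the 32 closest pairs the RefSeq promoter windows of build GRCm38.p6 (250 bases before to 50 after the gene's start) were looked up by symbol, and 19 matched a window whose start agrees to the base with the deposited models. Those for Lta4h, Brd1 and Alas1 show how the space between 2 divergent starts looks. The pairs at Lta4h and Brd1 hold assembled genes with low counts under the high-fat diet, and Alas1, the pair with the smallest distance, was chosen after its values were seen. The sequence reads 5′ to 3′ on the strand of the RefSeq gene. Capitals mark the bases between the 5′ end of the assembled gene, which is transcribed leftwards from there on the other strand, and the start of the RefSeq gene, taking the distance from the mm9 models. The windows lie at chr10:93453146-93453445 (plus strand, Lta4h), chr15:88734170-88734469 (minus strand, Brd1) and chr9:106247905-106248204 (minus strand, Alas1).
Lta4h, with XLOC_003432: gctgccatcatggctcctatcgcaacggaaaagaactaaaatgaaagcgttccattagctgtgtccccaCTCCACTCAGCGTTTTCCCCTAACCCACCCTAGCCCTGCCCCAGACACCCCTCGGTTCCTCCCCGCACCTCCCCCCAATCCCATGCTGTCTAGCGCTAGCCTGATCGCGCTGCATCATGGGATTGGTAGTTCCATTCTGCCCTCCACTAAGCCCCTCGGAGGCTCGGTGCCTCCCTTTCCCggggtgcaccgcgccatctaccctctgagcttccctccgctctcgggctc
Brd1, with XLOC_010483: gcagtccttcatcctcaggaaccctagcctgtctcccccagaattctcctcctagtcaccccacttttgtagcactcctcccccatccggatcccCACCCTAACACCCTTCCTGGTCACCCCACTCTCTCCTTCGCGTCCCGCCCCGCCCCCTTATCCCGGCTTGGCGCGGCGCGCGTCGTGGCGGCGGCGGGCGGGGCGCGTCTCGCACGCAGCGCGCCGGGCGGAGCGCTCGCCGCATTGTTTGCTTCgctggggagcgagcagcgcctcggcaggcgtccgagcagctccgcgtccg
Alas1, with XLOC_031399: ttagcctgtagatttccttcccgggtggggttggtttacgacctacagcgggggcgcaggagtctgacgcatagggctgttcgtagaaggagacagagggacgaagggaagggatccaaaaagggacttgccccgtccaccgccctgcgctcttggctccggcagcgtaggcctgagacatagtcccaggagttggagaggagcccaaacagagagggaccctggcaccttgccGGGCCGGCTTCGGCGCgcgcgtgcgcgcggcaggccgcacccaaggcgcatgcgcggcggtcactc
These windows held 16, 36 and 27 CpG dinucleotides. Across the 19 matched windows the median was 22 CpG (range 6 to 42) and 61.7% G and C, against 7 CpG (range 0 to 67) and 52.7% over all 32851 windows of the table. The TATA-box letters TATAAA were present on either strand in 1 of the 19 windows (5.26%, against 13.6% of all windows), CCAAT in 6 (31.6% against 37.4%) and GGAAGT, the core that ETS factors such as PU.1 bind, in 7 (36.8% against 23.8%). No listed motif contains another on either strand. These matches are descriptions of the letters in a window and not sites. The full set of windows was taken whatever the level of its genes. Whether the contrasts are particular to divergent pairs among expressed genes was not tested.

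Part of the assembled genes are found in a later annotation. GENCODE release M21 on GRCm38 was searched, without converting coordinates, for an intron of equal length on the same strand at the same distance to at least 2 exon edges of the same reference gene. The symbol of the reference was found for 248 of the 252, and 43 assembled genes matched an annotated intron, 22 of them over the whole chain of introns. The matched GENCODE genes were classed as antisense for 17, lincRNA for 13, protein-coding for 10, processed transcript for 2 and bidirectional-promoter lncRNA for 1. The other 209 had no such match, which says only that no intron of equal size and place was listed. No assembled gene matched an intron on the opposite strand. The exon junctions below, from the GENCODE transcripts, belong to 5 of the matched RNAs at genes the results return to. The match covered every intron of XLOC_025026 and XLOC_002066, but 1 of 4 for XLOC_024799 and XLOC_019580 and 1 of 2 for XLOC_029382. The lower-case letters are the last 30 bases of the upstream exon and the capitals are the first 30 bases of the downstream exon.
XLOC_025026, antisense to Mbd4, GENCODE Gm44206: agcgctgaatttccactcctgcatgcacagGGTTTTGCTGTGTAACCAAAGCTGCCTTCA
XLOC_024799, antisense to Dnah6, GENCODE Gm20560: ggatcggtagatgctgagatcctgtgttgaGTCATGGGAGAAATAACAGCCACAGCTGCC
XLOC_029382, antisense to 1700011L22Rik, GENCODE Gm30329: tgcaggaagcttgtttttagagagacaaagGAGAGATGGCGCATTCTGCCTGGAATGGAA
XLOC_019580, convergent with Fabp5, GENCODE Gm38335: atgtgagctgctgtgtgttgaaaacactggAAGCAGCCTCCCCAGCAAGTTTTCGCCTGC
XLOC_002066, divergent from Arg1, GENCODE Gm36172: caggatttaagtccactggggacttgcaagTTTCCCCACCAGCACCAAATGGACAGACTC
In 6 cases the matched intron belongs to the reference gene itself, so the later annotation gives the matched part of the assembled gene to that gene. These were XLOC_009070 upstream of Lgals3, XLOC_014071 upstream of Impact, XLOC_014242 at Eif1a, XLOC_018316 at Gm5535, XLOC_027115 at Anapc15 and XLOC_027391 upstream of Fbrs, the last with 5 of 5 introns. The match covered 1 of 3 introns of XLOC_009070 and 2 of 4 of XLOC_027115, and every intron of the others.

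The 4 libraries held between 39347347 and 45658551 counts assigned to genes, and the 252 assembled genes took 39950 and 39895 of them on the control diet, and 40834 and 34201 with high-fat feeding. Markers of macrophage identity summed to 26863 and 25815 counts per 1000000 counts (CPM) on chow and 20042 and 24489 CPM with high-fat feeding, and 13 of 15 tested markers had a log2 fold change below 0 (median -0.18, 1 called lower by edgeR). Markers of some other cell types differed between the diets. The sum over 17 mesothelial and fibroblast markers was 22.2 and 29.4 CPM in control libraries against 182 and 89.6 in high-fat libraries. The sum over 13 neutrophil markers was 112 and 116 CPM on chow against 80.9 and 67.3 on the high-fat diet, with Elane at 0. All 13 tested mesothelial and fibroblast markers had a log2 fold change above 0 (median 2.15, 1 called higher by edgeR). All 9 tested neutrophil markers had one below 0 (median -0.93, 2 called lower by edgeR). The sum over B cell markers was 129 and 118 CPM on chow and 118 and 217 CPM with high-fat feeding. Of these markers, 11 of 12 were above 0 (median 0.96, 1 called higher by edgeR). The sum over dendritic cell markers was 20.6 and 22.4 CPM on chow and 11.7 and 21.9 CPM with high-fat feeding, and 8 of 9 tested markers were below 0 (median -1.40, 1 called lower by edgeR). Sums over T and NK cell markers ranged over the 4 libraries from 1043 to 1166 CPM (7 of 10 above 0). Those over eosinophil and mast cell markers ranged from 66.6 to 85.8 CPM (5 of 7 above 0). In neither of these lists did edgeR call a gene. Over all tested genes edgeR called 0.322% higher and 0.29% lower. No reference gene of the assembled genes matched these marker lists by symbol. The macrophage list gave Spi1, the reference gene of XLOC_016640, by its older symbol Sfpi1, which was not found, so Spi1 is outside that sum. The part of these cells, or of the macrophage share, in the differences below was not tested. In bulk RNA, fewer cells of a type and less RNA per cell cannot be told apart.

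The assembled genes were faint. A gene was tested if it passed edgeR's filter on low counts, which 240 of the 252 did, among 12747 genes in all. The mean over the 4 libraries of those 240 ran from 0.217 to 67.1 CPM with a median of 1.38, and the 10 most abundant held 40.7% of the summed CPM. Per kilobase of exon, the scale on which genes can be compared, their median level was 0.715 CPM per kb, against 5.20 over all tested genes, 1.38 over 676 tested noncoding RefSeq genes and 0.647 over 204 tested assembled genes far from RefSeq genes. The 12 genes below the filter had at most 32 counts in any library, and XLOC_022772, downstream of Slc30a9, reached that number in the second high-fat library with 3 or 4 counts in each of the others.

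For 188 assembled genes the reference gene was tested too. The median level per kb of an assembled gene was 8.88% of that of its reference, and 24 of the 188 stood above it. The divergent genes had a median of 4.35%, with 1 of 67 above its reference, the same-strand downstream genes 2.05%, the convergent genes 6.15% and the same-strand upstream genes 8.08%. Antisense genes that overlap their reference had a median of 19.1%, and 15 of 47 exceeded it. Among the 20 pairs that share exon bases, 11 assembled genes exceeded the reference, with a median of 197%. The level of a divergent gene followed that of its RefSeq gene only loosely over the 67 pairs (Spearman's rho 0.32, a description across genes of the same libraries, which are not independent replicates).

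**Figure D2:**
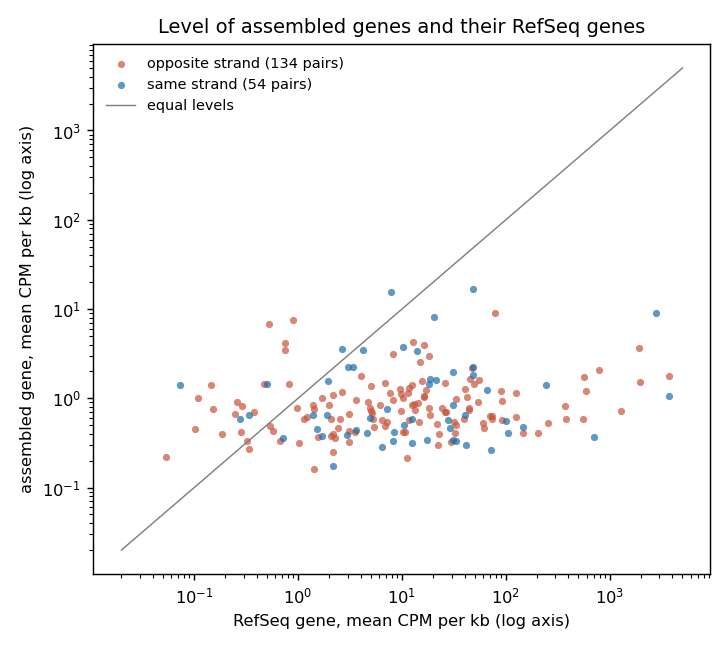
Mean level over the 4 libraries of each assembled gene (vertical axis, CPM per kb, log scale) against that of its RefSeq gene (horizontal axis, CPM per kb, log scale) for the 188 pairs in which both were tested, coloured by strand relation. The grey line marks equal levels, and 24 of the 188 points lie above it.

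Under the high-fat diet the assembled genes were, as a group, lower. Their summed level was 992 and 1028 CPM on the control diet, and 880 and 856 with high-fat feeding, a log2 ratio of -0.22 on means of 1010 ± 24.9 and 868 ± 16.7 (SD, n = 2 each). The diets did not overlap, but an exact two-sided permutation test of 2 against 2 libraries cannot go below the p = 0.333 obtained here. Of the 240 tested genes, 176 were below 0 in log2 fold change (high-fat over control), the median being -0.27, whereas over all tested genes the median was -0.01 and 50.8% lay below 0. With no filter, 182 of the 252 lay below 0, again with a median of -0.27. Among those that passed the filter, 17 had the minimum of 10 counts in both control libraries but not in all high-fat libraries, and 7 the reverse, so these 24 could pass through 1 diet alone.

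Few single genes passed the test. With edgeR's quasi-likelihood test and Benjamini-Hochberg adjustment over all 12747 genes, 2 of the 240 assembled genes had an adjusted p under 0.05, 1 higher and 1 lower, which is 0.833% against 0.612% of all tested genes (0.322% higher and 0.29% lower). At an unadjusted p under 0.05 there were 5 higher and 39 lower, or 2.08% and 16.2%, against 8.56% and 8.46% of all genes. Both high-fat libraries lay below both control libraries for 113 genes, 47.1% against 24.9% of all genes, and above them for 28, 11.7% against 26.1%. DESeq2 called 11 of 236, 1 higher and 10 lower, or 4.66% against 2.93% of all genes (1.33% higher and 1.6% lower).

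Other assembled and noncoding genes also leaned to the lower side. Of the 204 tested assembled genes far from RefSeq genes, 153 had a negative log2 fold change (median -0.34). Of the 676 tested noncoding RefSeq genes 66.0% lay below 0, with a median of -0.18, against 49.0% of 11627 coding genes with a median of 0.01. Among RefSeq genes of like abundance the shift was smaller: of the 2029 RefSeq genes between 0.594 and 3.07 CPM, the middle range of the assembled genes, 56.4% lay below 0 with a median of -0.08, while 82 of the 120 assembled genes in that range did, with a median of -0.20. The share below 0 was 70 of 101 (69.3%) for assembled genes under 1 CPM, 88 of 117 (75.2%) between 1 and 10 CPM and 18 of 22 (81.8%) over 10 CPM, against 51.1%, 59.4% and 45.1% of RefSeq genes in the same ranges. These are descriptions, and the differences between the groups of genes were not tested. Their reference genes differed less than the assembled genes themselves: 54.5% of 191 tested reference genes lay below 0, with a median of -0.04.

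**Figure D3:**
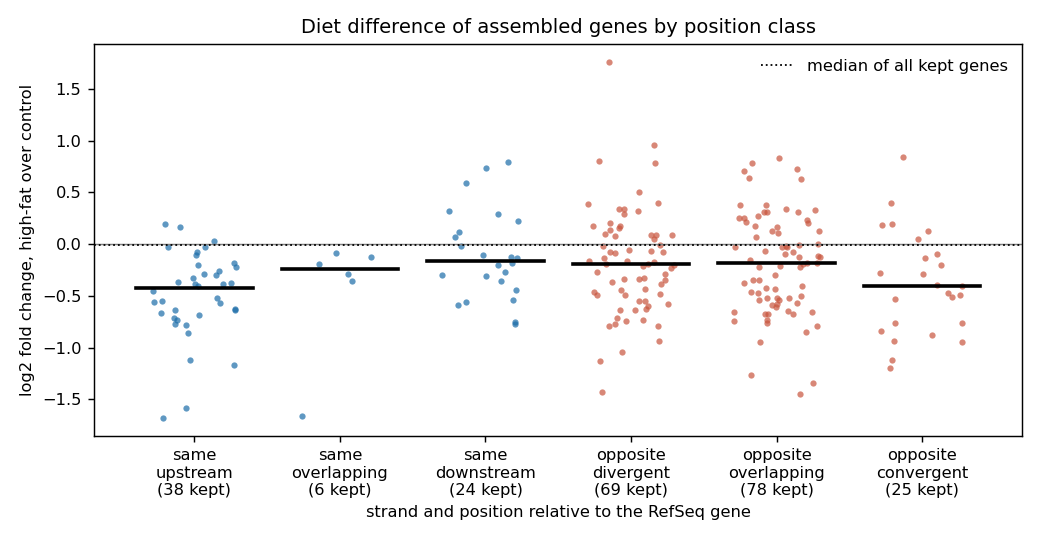
Log2 fold change, high-fat over control (vertical axis), of each of the 240 tested assembled genes by strand and position relative to its RefSeq gene (horizontal axis). Black bars are class medians and the dotted line is the median of all tested genes, -0.01; in the same-strand upstream class 35 of 38 points lie below 0.

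Same-strand genes upstream of a RefSeq gene leaned low. Of 38, 35 had a log2 fold change below 0, the median was -0.43, and the high-fat libraries lay below the control libraries for 24 and above for none (24.9% and 26.1% of all tested genes). With each library left out in turn, between 31 and 36 of the 38 were below 0, and the class median ran from -0.63 without high-fat library 1 to -0.27 without high-fat library 2. Their summed level was 216 and 208 CPM in control libraries against 171 and 159 in high-fat libraries. The gene that passed the test here was XLOC_001073 (chr1:39606428-39607225, minus strand, 2 exon blocks), which ends 743 bases upstream of Snord89, a small nucleolar RNA gene. It lies between Snord89 and Rnf149, a ubiquitin ligase gene on the same strand whose 3′ end is 919 bases before the start of XLOC_001073. XLOC_001073 was counted at 5.86 and 7.03 CPM on chow against 2.95 and 3.00 CPM on the high-fat diet. Both high-fat libraries were below both control libraries, and the gene fell by 1.11 ± 0.19 (SE) on the log2 scale (edgeR, adjusted p = 0.0456). Snord89 itself went from 2.68 and 2.60 to 1.29 and 1.08 CPM, a log2 fold change of -1.15 that missed the threshold (edgeR, adjusted p = 0.0831). Rnf149 was at 594 and 612 CPM on the control diet, and 436 and 510 with high-fat feeding (log2 fold change -0.35, edgeR, adjusted p = 0.185). The call for XLOC_001073 was lost without control library 1 (edgeR, adjusted p = 0.146) and without control library 2 (adjusted p = 0.165), and with limma-voom (adjusted p = 0.0729).

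The 2 other named genes of that class are near macrophage genes and differed little. XLOC_016640 ends 5770 bases upstream of Spi1, the gene of PU.1, the transcription factor that specifies myeloid cells. It stood at 38.2 and 42.0 CPM in control libraries against 37.1 and 41.8 in high-fat libraries. The diets overlapped, with a log2 fold change of -0.02 ± 0.11, and Spi1 was as close (-0.04). XLOC_024634 ends 1812 bases upstream of Gpnmb, a glycoprotein gene of lipid-laden macrophages. It had 4.99 and 5.90 against 5.69 and 4.40 CPM, again overlapping, beside a Gpnmb level of 12724 and 10977 against 10271 and 8551 CPM. Per kb, XLOC_016640 had 17.0 CPM against 48.3 for Spi1, and XLOC_024634 had 9.03 against 2799 for Gpnmb. Among the genes that a later annotation gives to the reference itself, XLOC_014071 upstream of Impact, a translational regulator, had 25.3 and 25.9 CPM on chow against 17.9 and 16.5 on the high-fat diet (log2 fold change -0.57, edgeR, adjusted p = 0.0684), and Impact had -0.27.

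Same-strand genes downstream of a RefSeq gene held the other gene that passed the test. XLOC_008438 (chr13:52649728-52657129, minus strand, 5 exon blocks) begins 8120 bases beyond the end of Gm2848, a predicted gene. It was counted at 25.0 and 23.9 CPM on the control diet, and 41.5 and 43.0 CPM with high-fat feeding. The diets stood well apart, and the gene rose by 0.79 ± 0.10 (SE) on the log2 scale (edgeR, adjusted p = 0.0190). Gm2848 went the same way without passing, from 4.60 and 4.40 to 6.98 and 7.03 CPM (log2 fold change 0.64, edgeR, adjusted p = 0.121). Per kb the assembled gene was the more abundant, at 15.5 CPM against 7.85. The difference of XLOC_008438 from Gm2848 in its fold change was 0.15 (limma, adjusted p = 0.735). Its call was lost without control library 1 (edgeR, adjusted p = 0.0738) and without control library 2 (adjusted p = 0.0860). The class sum, which includes this gene, was 64.8 and 65.2 CPM in control libraries against 78.6 and 81.5 in high-fat libraries. Its mean went from 65.0 to 80.1 CPM, while XLOC_008438 alone went from 24.4 to 42.3 CPM, the larger rise. Of the 24 tested genes of the class, 16 had a log2 fold change below 0 (median -0.16). XLOC_019376, downstream of the glycosylation gene Alg14, had 2.24 and 2.24 against 2.35 and 2.88 CPM, with both high-fat libraries higher (log2 fold change 0.22 ± 0.24). XLOC_025453, downstream of Lincpint, a long noncoding RNA gene, had 2.68 and 2.27 against 3.40 and 2.65 CPM, and its diets overlapped.

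**Figure D4:**
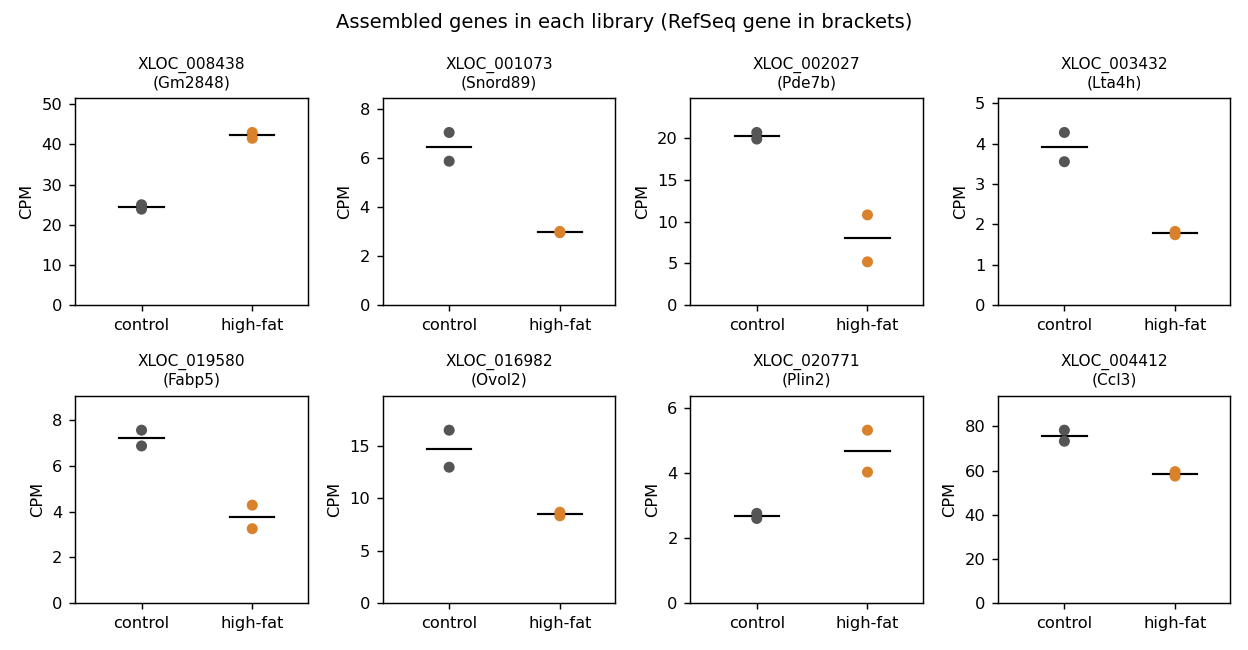
CPM of 8 assembled genes in each library (points; grey control, orange high-fat; bars are means of 2 libraries; each panel has its own axis from 0), with the RefSeq gene in brackets. XLOC_008438 is higher in both high-fat libraries and XLOC_001073 lower; of the other 6, XLOC_020771 is higher in both and the rest are lower in both, none past the test's threshold.

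All 6 same-strand genes that overlap their reference were below 0 in log2 fold change (median -0.24). Both high-fat libraries lay below the control libraries for 4 of them and above for none (24.9% and 26.1% of all tested genes). The overlap of XLOC_024206 is with Pilrb1, a gene of the paired immunoglobulin-like receptors, whose neighbour Pilrb2 is a near copy, so that the split of reads between them is uncertain. XLOC_024206 was counted at 6.06 and 6.05 CPM on chow against 4.78 and 5.13 on the high-fat diet (log2 fold change -0.29 ± 0.17). XLOC_027101, inside Arap1, a gene of a GTPase-activating protein, had 7.38 and 5.28 against 5.43 and 5.68 CPM, and its diets overlapped. XLOC_022324, whose bounds overlap those of Gm13247 and Gm13251, had 4.546 and 4.997 CPM on chow and 4.373 and 4.405 with high-fat feeding, both high-fat libraries lower (log2 fold change -0.12 ± 0.18). Gm13247, its reference, had under 0.2 CPM in every library. Gm13251, also on the same strand, had 70.7 and 85.2 CPM on chow and 95.5 and 91.9 with high-fat feeding. Both of its high-fat libraries were higher (log2 fold change 0.27, edgeR, adjusted p = 0.270).

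Divergent genes were lower on the whole by a smaller amount. Of 69 tested, 47 had a log2 fold change below 0 (median -0.20). The high-fat libraries lay below the control libraries for 31 and above for 8 (24.9% and 26.1% of all tested genes), and none passed the test. Among the 48 tested genes with starts within 1000 bases the median was -0.22, with 35 below 0, and among the 21 with more distant starts it was -0.08, with 12 below 0. The pair with the largest drop at over 1 CPM was XLOC_003432 (chr10:92910019-92915960, minus strand), which starts 181 bases from Lta4h, the gene of the hydrolase that makes leukotriene B4. It had 3.55 and 4.28 CPM on the control diet, and 1.75 and 1.83 with high-fat feeding, with no overlap. Its log2 fold change was -1.13 ± 0.23 (edgeR, adjusted p = 0.0644), while Lta4h, at 107 and 97.9 against 94.5 and 86.7 CPM, had -0.18. In the test of the difference between the 2 genes, XLOC_003432 was lower than Lta4h by a log2 difference of -0.92 (limma, adjusted p = 0.124). XLOC_010483, 155 bases from Brd1, a subunit gene of histone acetyltransferase complexes, had 1.52 and 1.49 against 0.754 and 0.701 CPM. Its log2 fold change was -1.04 ± 0.30 (edgeR, adjusted p = 0.152) and that of Brd1 -0.30. XLOC_031399, the divergent gene nearest to its partner, had 2.21 and 2.52 against 2.35 and 1.85 CPM and overlapped between the diets. Alas1, the first enzyme gene of haem synthesis, had 356 and 322 against 240 and 268 CPM (log2 fold change -0.42, edgeR, adjusted p = 0.112).

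Among divergent genes at macrophage genes, the one at Tyrobp, the adaptor of myeloid activating receptors, starts 83 bases away. XLOC_027987 had 4.89 and 3.94 CPM in control libraries against 3.73 and 3.13 in high-fat libraries. Tyrobp lay lower under the high-fat diet as well, at 1173 and 1306 against 927 and 892 CPM, and the log2 fold changes were -0.36 and -0.45 (edgeR, adjusted p = 0.410 and 0.112). XLOC_002066 starts 91 bases from Arg1, the arginase gene of alternatively activated macrophages, and had 1.79 and 2.29 against 2.95 and 2.40 CPM, both high-fat libraries higher (log2 fold change 0.39 ± 0.25). Arg1 itself had 85.9 and 59.4 against 63.3 and 43.1 CPM, overlapping, with a log2 fold change of -0.45. XLOC_020771 starts 6178 bases from Plin2, the coat protein gene of lipid droplets, and was counted at 2.76 and 2.60 against 5.32 and 4.03 CPM. Both high-fat libraries were higher (log2 fold change 0.80 ± 0.22, edgeR, adjusted p = 0.135), and Plin2 had 2289 and 2126 against 2897 and 2332 CPM (0.24). XLOC_020681, at the transcription factor gene Klf4, had 8, 13, 25 and 20 counts in control 1, control 2, high-fat 1 and high-fat 2. Its log2 fold change was 0.96 ± 0.45 (edgeR, adjusted p = 0.318) beside 0.37 for Klf4. XLOC_006381, 1559 bases from the centrosome gene Nin, had 7, 5, 24 and 21 counts and so passed the filter only through the high-fat libraries, where it is high. It had a log2 fold change of 1.76 ± 0.48 (edgeR, adjusted p = 0.133) and a difference from Nin of 1.72 (limma, adjusted p = 0.0923).

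Per kb, the most abundant divergent gene was XLOC_016982, at 7.35 CPM. It starts 5331 bases from Ovol2, an epithelial transcription factor gene, and was counted at 13.0 and 16.5 CPM on chow against 8.68 and 8.34 on the high-fat diet. It was lower in both high-fat libraries (log2 fold change -0.79 ± 0.16, edgeR, adjusted p = 0.0644). Ovol2 had 1 count in each control library and 0 in each high-fat library, too few for any comparison. XLOC_029282, 5013 bases from Gatad2a, a subunit gene of the NuRD complex, had 2.29 and 2.50 against 3.08 and 2.88 CPM (log2 fold change 0.32 ± 0.22). XLOC_004392, 513 bases from the Schlafen pseudogene Slfn10-ps, had 2.01 and 1.88 against 2.97 and 2.55 CPM (0.51 ± 0.24), and Slfn10-ps was also higher in both high-fat libraries (0.34). Slfn10-ps is part of a family of similar genes, so its counts are uncertain.

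Antisense genes that overlap their reference included the gene with the highest CPM of all. Of 78 tested, 53 had a log2 fold change below 0 (median -0.18), 31 were lower and 14 higher in both high-fat libraries (24.9% and 26.1% of all tested genes), and none passed the test. XLOC_004412 (chr11:83461823-83469645, plus strand) runs antisense to Ccl3, a chemokine gene that recruits monocytes, and shares 312 exon bases with RefSeq exons. It was counted at 73.3 and 78.3 CPM on the control diet, and 57.5 and 59.5 with high-fat feeding. It was lower in both high-fat libraries, by a log2 fold change of -0.37 ± 0.09 (edgeR, adjusted p = 0.109). Ccl3 overlapped between the diets, at 65.0 and 63.9 against 48.8 and 71.2 CPM. Because of the shared bases, and since Ccl3 and its neighbour Ccl4 are similar in sequence, the split of reads here is uncertain. XLOC_002027, antisense to the cAMP phosphodiesterase gene Pde7b with 61 shared exon bases, had 20.6 and 19.9 against 10.8 and 5.18 CPM. The 2 high-fat libraries were both lower but differed from each other by more than the control libraries did (log2 fold change -1.34 ± 0.34, edgeR, adjusted p = 0.180). Pde7b had 10.7 and 10.3 against 7.02 and 4.91 CPM and the same order of libraries (-0.81). 

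The antisense genes at 2700046A07Rik, 1700011L22Rik, Dnah6 and Tubb4a stood where the reference was nearly silent. Over the class, 47 of the 78 tested genes had a reference that was tested too, with a median level of 2.43 CPM per kb. XLOC_014330, across 2700046A07Rik, had 35.1 and 31.9 CPM in control libraries against 27.7 and 24.9 in high-fat libraries, while 2700046A07Rik had no count in any library. Its log2 fold change was -0.35 ± 0.11 (edgeR, adjusted p = 0.189). XLOC_029382, across 1700011L22Rik, had the second highest CPM of the assembled genes, at 56.4 and 60.2 against 55.9 and 53.5 CPM, and 1700011L22Rik had 1 count in each control library and 0 in each high-fat library. XLOC_024799, across the dynein gene Dnah6, had 18.4 and 21.2 CPM on chow against 13.1 and 12.1 on the high-fat diet (log2 fold change -0.65, edgeR, adjusted p = 0.0712), beside 3 to 6 counts of Dnah6 per library; it shares 287 exon bases with RefSeq exons. XLOC_013062, across the tubulin gene Tubb4a, was higher in both high-fat libraries, at 1.94 and 1.83 against 2.52 and 3.38 CPM (0.64 ± 0.25, edgeR, adjusted p = 0.248). It also overlaps Gm11110 on the opposite strand, at 2.86 and 4.07 against 4.05 and 5.01 CPM. Dennd1c, 73 bases away on the opposite strand, had 9.56 and 7.21 against 6.74 and 8.46 CPM. Both of these genes overlapped between the diets. XLOC_025026, antisense to the DNA repair gene Mbd4, had 10.4 and 13.5 against 10.4 and 12.3 CPM, overlapping, and shares 301 exon bases with RefSeq exons. Per kb it exceeded Mbd4, at 7.60 against 0.888 CPM.

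Of 3 further antisense genes, 1 lies across a RefSeq gene that passed the test. XLOC_029721, across Mvd, an enzyme gene of cholesterol synthesis, had 0.497 and 0.438 against 0.646 and 0.400 CPM and overlapped between the diets. Mvd fell, from 6.43 and 5.07 to 2.52 and 2.15 CPM, by 1.30 on the log2 scale (edgeR, adjusted p = 0.0429), the only tested reference gene past the threshold. The difference between the 2 fold changes was 1.39 (limma, adjusted p = 0.188). XLOC_011777, inside Runx1, a transcription factor gene of blood cells, had 0.522 and 0.747 against 1.29 and 0.801 CPM (log2 fold change 0.73 ± 0.39, with 0.34 without high-fat library 1 and 0.48 without control library 1), and Runx1 overlapped between the diets (0.03). At Mfap5, a microfibril gene of fibroblasts, the reference had 4, 1, 28 and 13 counts in control 1, control 2, high-fat 1 and high-fat 2, beside the mesothelial and fibroblast markers given above. The antisense XLOC_026030, with 73 shared exon bases, had 0.373 and 0.644 against 0.323 and 0.350 CPM (-0.59 ± 0.45). This pair was chosen after its values were seen.

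Convergent genes, whose 3′ ends face the reference, had a median log2 fold change of -0.40 (-0.25 without control library 2), with 19 of 25 below 0, 14 lower and 3 higher in both high-fat libraries (24.9% and 26.1% of all tested genes). XLOC_019580 ends 4260 bases from Fabp5, a fatty acid binding protein gene of macrophages, and was counted at 6.88 and 7.57 CPM on the control diet, and 4.29 and 3.25 with high-fat feeding. It was lower in both (log2 fold change -0.93 ± 0.20, edgeR, adjusted p = 0.0699). Fabp5 was also lower in both, at 2005 and 2250 against 1673 and 1525 CPM (-0.41). XLOC_006113 ends 8717 bases from Metrnl, a secreted factor gene, and had 6.11 and 6.96 against 3.32 and 3.98 CPM (-0.84 ± 0.19, edgeR, adjusted p = 0.0839). Metrnl overlapped between the diets (0.02), and the difference between the 2 fold changes was -0.86 (limma, adjusted p = 0.112). XLOC_008385, near 1700029N11Rik, had 15.6 and 19.2 against 11.8 and 14.7 CPM (-0.39 ± 0.16). XLOC_023486, near the microRNA gene Mir684-1, which had no count, was at 2.11 and 1.60 against 1.23 and 0.951 CPM (-0.76 ± 0.30). XLOC_028544, near Trim34a of the large tripartite-motif family, was at 1.14 and 1.88 against 1.18 and 1.30 CPM and overlapped.

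Whether an assembled gene moved apart from its RefSeq gene was asked of the 188 pairs in which both were tested, by a limma fit of the log2 ratio within each library. None of the 188 pairs differed between the diets at an adjusted p under 0.05, nor did any of the 6687 genes fitted the same way (0%); at an unadjusted p under 0.05 there were 41 (21.8%), against 14.4% of all. The fold change of the assembled gene was the lower of the pair in 125 of 188. Both genes had a log2 fold change below 0 in 83 pairs and above 0 in 26, the assembled gene alone was below 0 in 56 and the reference alone in 23. Across genes, with the same 4 libraries behind each point, Spearman's rho of the 2 fold changes was 0.30 over the 188 pairs. It was 0.50 over 67 divergent pairs, 0.31 over 20 convergent pairs, 0.17 over 47 antisense overlapping pairs and 0.09 over 31 same-strand upstream pairs. These are descriptions across genes, which are not independent replicates.

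**Figure D5:**
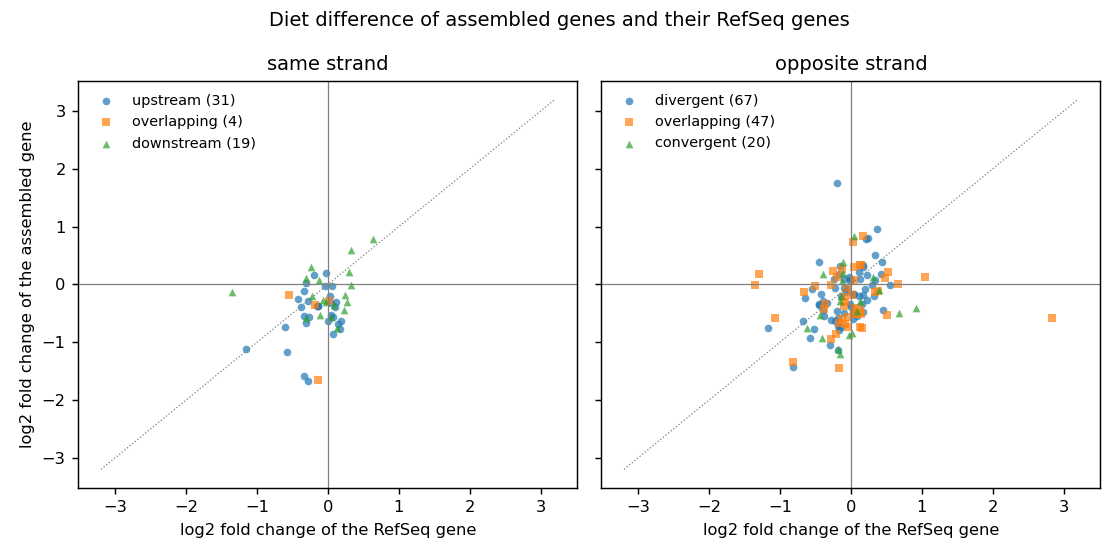
Log2 fold change, high-fat over control, of each assembled gene (vertical axis) against that of its RefSeq gene (horizontal axis) for the 188 pairs in which both were tested, in 1 panel per strand relation with markers by position. The dotted line marks equal fold changes; 125 of the 188 points lie below it.

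The gene lists of macrophage function touched few of the pairs. The list of lipid metabolism held 4 reference genes (Fabp5, Plin2, Gpnmb and Mvd), that of inflammatory cytokines and chemokines 1 (Ccl3) and that of innate signalling and transcription factors 2 (Runx1 and Klf4). Over all tested genes, edgeR called 0.322% higher and 0.29% lower, with a median log2 fold change of -0.01. In the lipid list as a whole, edgeR called 1 of 36 tested genes higher and 4 lower, with a median log2 fold change of -0.50. In the inflammatory list it called 1 of 21 higher and none lower (median 0.34), and in the innate list 1 of 39 higher and none lower (median -0.05). None of the 7 assembled genes at these reference genes passed the test. Of the 7, 3 were higher in both high-fat libraries (XLOC_020771, XLOC_020681 and XLOC_011777), 2 lower in both (XLOC_019580 and XLOC_004412), and 2 overlapped (XLOC_024634 and XLOC_029721). Over all tested genes, 26.1% were higher and 24.9% lower in both.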

How the data were processed

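RNA of 4 libraries, 2 per diet, was measured by paired-end sequencing after depletion of ribosomal RNA. The authors deposited whole-number read counts for each gene, without normalization. Per the submitters' processing notes, the tools were TopHat2 2.0.10, Cufflinks 2.1.1 and HTSeq, and the build mm9. The sources used here do not give their order, settings or strand mode, or how the assembled genes were selected. The deposited gene models, in mm9, gave positions. Of all records, 13.5% to 15.0% fell in no gene, 37.5% to 48.5% aligned to several places and 0.664% to 0.823% were ambiguous; these lines stayed out of library sizes.

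Genes passing filterByExpr (minimum count 10) were fitted with edgeR 4.0.16 (robust quasi-likelihood, TMM) in R 4.3.3, with Benjamini-Hochberg adjustment over 12747 genes. The fit has 2 residual degrees of freedom. SE is the absolute log2 fold change over the square root of F. CPM use TMM-adjusted totals. Ratios to the reference gene were fitted with limma 3.58.1 on log2 CPM (prior count 2). DESeq2 1.42.0, limma-voom, other filters, distance limits, a replicate block and leaving out each library were alternatives. Counts over 12747 genes were simulated for the high-fat against control comparison, with changed genes drawn from all tested genes. The edgeR test called 96.0% of 100 genes changed by 2 on the log2 scale and 76.0% of 100 changed by 1. The ratio test, over 6687 genes, called 89.9% of 99 and 53.4% of 116. Of unchanged genes, the edgeR test called 10 of 12547 and the ratio test 20 of 6470. The median level was 14.4 CPM over all tested genes and 1.38 CPM for the assembled genes, so these rates are not those of the assembled genes.

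Named genes were those past the threshold, the 3 most abundant per kb in each class, the 4 per direction with the largest fold change at 1 CPM or more without overlap, up to 8 whose reference is in a gene list, and 2 per direction with the smallest p in the ratio fit; the others were chosen after their values were seen. The assembled genes and the lists were chosen with earlier results of these data known. Libraries of the same diet differed by more than counting noise (chi-square per degree of freedom 33.8 for control and 34.9 for high-fat). Of the genes next to the distance limit, 1 is not reported here.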

Additional observations from a re-analysis of the deposited data

How the results depend on the processing

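The count of assembled genes past the threshold was 2, beside 0.612% of all tested genes called, and depended on the method. DESeq2 gave 11, beside 2.93% of all genes, and no filter 13, beside 3%. Limma-voom gave 1 (0.22% of all genes), a filter at 1 CPM 1 (0.418%) and fitting without robust estimation 1 (0.479%). Left-out libraries gave 0 to 21: 0 without control library 1 or 2, 21 without high-fat library 1 and 10 without high-fat library 2, where the lone library is assumed to vary like the other diet. Both called genes kept their call under DESeq2, its size factors in edgeR, no filter, and without either high-fat library; only XLOC_008438 kept it under limma-voom, the CPM filter and no robust estimation. Limits on distance used the main fit, with its 0.612% of all tested genes called. A limit of 5000 bases to the RefSeq gene left 1 call of 198 genes, 1000 bases 1 of 143 and overlap only 0 of 84, since fewer genes enter. The median log2 fold change was -0.21 at 1000 bases and -0.18 for overlapping genes, and -0.29 to -0.23 with a library left out. Genes below 0 numbered 108 of 140 with the CPM filter, 104 of 143 at 1000 bases and 59 of 84 overlapping, and 165 to 171 of 240 with a library left out. Without overlap between diets, 27 genes were higher and 112 lower with DESeq2 size factors, and 29 and 108 with library totals (both alternatives, and the counts below 0, were added after seeing the data).

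The replicate block rests on a number alone: deviations of libraries with the same number correlated at 0.0888 over 2 pairs. With the replicate block 2 genes were called, beside 0.886% of all genes, the median was -0.26 and 175 lay below 0. The ratio fit with the block called 3 pairs instead of 0, beside 0.972% of all genes in that fit. These were XLOC_006381 with Nin higher, with under 10 counts in both control libraries, and XLOC_006113 with Metrnl and XLOC_024411 with Capza2 lower. The ratio fit called 0 pairs under every other alternative run.

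Over the 30 named genes and 326 gene-by-alternative values, 290 kept direction and side of the threshold, 20 newly passed it, 7 no longer did and 9 changed sign. The changes of sign fell in 6 genes, whose log2 fold change in the main fit ran from -0.28 to 0.17. With a library left out, the log2 fold change ranged from -0.60 to 0.12 for XLOC_028544, -0.26 to 0.14 for XLOC_025026, -0.22 to 0.46 for XLOC_029721, -0.41 to 0.066 for XLOC_027101, -0.11 to 0.064 for XLOC_016640 and -0.30 to 0.063 for XLOC_024634. The cause was not tested. Depth limits the faintest genes most, since 12 did not reach the count filter.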

Other observations

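Several assembled genes outside the naming rule, chosen after their values were seen, had values that a reader may want. XLOC_023019 lies antisense within the cofilin phosphatase gene Ssh1 with 123 shared exon bases. It had 15.7 and 18.4 CPM on the control diet, and 10.3 and 10.1 with high-fat feeding (log2 fold change -0.74 ± 0.14, edgeR, adjusted p = 0.0592). It was 1 of the 10 assembled genes of 236 that DESeq2 called lower, XLOC_015429 among them, beside 1.6% of all genes. Ssh1 overlapped between the diets, at 2.53 and 2.01 against 2.67 and 2.30 CPM. XLOC_015429, upstream of the activity-induced transcription factor gene Npas4 by 218 bases, had a log2 fold change of -0.74 (edgeR, adjusted p = 0.111), and Npas4 had -0.60. XLOC_011487, upstream of A230028O05Rik, was the third most abundant at a mean of 47.3 CPM, with a log2 fold change of -0.40 beside -0.37 for A230028O05Rik.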
